A study of Mus musculus with 6 samples.

Results

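Of the 6 arrays in this study of cultured mouse mesenchymal stem cells, 4 were compared here: the control and irradiated cultures of experiment 3 and the control and irradiated cultures of experiment 2. They were chosen by the biological replicate number in the sample titles, and the same number marks the irradiated culture and the control that stood beside it. The labels' protocols give the same treatment to every culture of the series. The cells came from a commercial source and were grown with a mix that drives fat cell formation, given again 48 h before exposure: dexamethasone, a glucocorticoid, and rosiglitazone, a PPAR gamma agonist, at 1 µM each, insulin at 5 µg/ml, and IBMX, which blocks phosphodiesterases, at 100 µM. Irradiated cultures received 2 h of pulsed broadband terahertz radiation centred near 10 THz, with 35 fs pulses, 1 kHz repetition and 1 mW/cm2 average power density, and both arms were held at 26 to 27 °C. Total RNA was taken when exposure ended and hybridized to Affymetrix expression arrays.

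The comparison asked how far 1 experiment differed from another run under the same stated conditions, apart from irradiation, and whether such differences appeared in both arms or on the control array of experiment 3 alone. Each experiment is a single run, so n = 1 experiment on each side. The p-values measure only the spread between the arms of an experiment, they compare these 2 experiments and no condition, and nothing in the labels separates an experiment from its date, cell lot or handling, so these cannot be told apart. Values are log2 levels, a difference of 1 is 2-fold, and levels of different probe sets cannot be set against each other.

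Cells that meet heat, misfolded protein or oxidants switch on chaperone genes through heat shock factor 1, which binds repeated GAA units in their promoters. Immediate early genes, among them the AP-1 transcription factors Fos, Jun and Atf3, rise within minutes to hours of growth factor or stress signals without new protein synthesis. Genes of mitosis are switched on late in the cell cycle, in part through CCAAT boxes and the cell cycle genes homology region of their promoters, so their level in a culture reflects how many cells are near division.

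Promoters of a few genes that hold such elements are printed for that reason, and the counts over all genes of each set follow them. Each is the 250 bases before the transcription start, 5′ to 3′ on the gene's strand, from RefSeq on the mouse build GRCm38.p6. In the first set of promoters, all of chaperone genes at least 2-fold higher in experiment 3 in both arms, capitals mark GAANNTTC, a pair of inverted heat shock units. The promoter of Hspa1a lies at chr17:34972157-34972406 (minus strand), that of Hspa1b at chr17:34959239-34959488 (minus strand) and that of Hspb1 at chr5:135887669-135887918 (plus strand).
Hspa1a: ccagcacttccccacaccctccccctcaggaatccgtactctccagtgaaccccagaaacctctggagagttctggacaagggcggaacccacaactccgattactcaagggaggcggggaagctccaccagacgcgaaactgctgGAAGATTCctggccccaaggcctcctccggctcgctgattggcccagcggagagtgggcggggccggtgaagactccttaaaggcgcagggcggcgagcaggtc
Hspa1b: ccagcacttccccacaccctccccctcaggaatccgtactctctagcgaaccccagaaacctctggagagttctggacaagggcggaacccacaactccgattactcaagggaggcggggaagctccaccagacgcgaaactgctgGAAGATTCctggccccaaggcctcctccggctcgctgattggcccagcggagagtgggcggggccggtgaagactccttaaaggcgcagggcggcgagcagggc
Hspb1: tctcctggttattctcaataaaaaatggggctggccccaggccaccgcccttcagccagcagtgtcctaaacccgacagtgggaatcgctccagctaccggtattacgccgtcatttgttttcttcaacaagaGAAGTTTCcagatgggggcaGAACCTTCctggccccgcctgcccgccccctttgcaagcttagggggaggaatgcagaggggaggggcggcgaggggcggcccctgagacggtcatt
Hspa1a and Hspa1b, neighbouring copies of the inducible Hsp70 gene, share 98.8% of these bases without gaps. Their promoters hold 1 match each and that of the small heat shock protein Hspb1 holds 2. Both strands of 27025 promoters of this length were searched, and 6.78% held GAANNTTC. Of the 25 genes with a promoter in the table among the 34 that were 2-fold higher in both arms, 4 held it (16%), as did 7 of 22 heat shock and chaperone genes (31.8%). The co-chaperone genes Dnajb1 and Hsph1 had 0 matches to this pair in this window. Only this order of the 2 units was searched, and not the opposite order. The 0 matches therefore do not show that heat shock units were absent. A longer form with 3 units was in 0 of the 25, in 2 of the 22 heat shock and chaperone genes (9.09%) and in 0.4% of all promoters. The cAMP response element TGACGTCA, which occurs in 1.62% of all promoters, was in 0 of the 25. These matches describe letters in a window and show no binding.

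A second pair of promoters belongs to mitotic genes that were lowest on the control array of experiment 3. Ccnb2 encodes cyclin B2, a partner of the mitotic kinase Cdk1, and its promoter lies at chr9:70421555-70421804 (minus strand). Cdc20 encodes the activator of the ubiquitin ligase that ends metaphase, and its promoter lies at chr4:118437344-118437593 (minus strand). Capitals mark TTTGAA, the core of the cell cycle genes homology region.
Ccnb2: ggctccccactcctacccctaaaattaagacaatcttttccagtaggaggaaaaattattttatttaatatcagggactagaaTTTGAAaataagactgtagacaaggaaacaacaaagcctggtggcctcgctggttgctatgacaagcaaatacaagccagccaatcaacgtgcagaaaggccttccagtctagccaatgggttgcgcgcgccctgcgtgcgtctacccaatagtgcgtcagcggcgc
Cdc20: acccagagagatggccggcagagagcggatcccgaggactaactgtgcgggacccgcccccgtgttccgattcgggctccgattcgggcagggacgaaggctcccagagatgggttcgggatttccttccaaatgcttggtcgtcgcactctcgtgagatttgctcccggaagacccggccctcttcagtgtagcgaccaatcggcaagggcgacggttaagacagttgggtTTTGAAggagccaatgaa
TTTGAA, on either strand, was in 9 of 25 promoters of the G2/M and mitosis list (36%) and in 16.3% of all promoters. CCAAT was in 19 of those 25 (76%) and in 34.5% of all. CCAAT was also in 17 of the 25 promoters of genes higher in both arms (68%), so it was frequent in both sets.

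Experiment 3 stood above experiment 2 in a small set of genes, among them chaperones and AP-1 factors, and no gene stood below it by the same test. Of 45037 probe sets, limma called 16 higher in experiment 3 (0.0355% of those tested, adjusted p under 0.05) and 0 lower (0%). An unadjusted p under 0.05 was reached by 4454 probe sets, 2277 higher and 2177 lower. The 16 probe sets stand for 12 named genes and 2 unnamed probe sets, 1448046_at and 1451715_at, and all 16 were at least 2-fold higher in both arms. None of the 16 kept an adjusted p under 0.05 when experiment 1 was left out of the estimate of the spread, or when any single array of experiments 2 and 3 was left out. In the latter fits the difference of Hspa1a still lay between 3.36 and 3.80. In bulk RNA, more cells of a kind and more transcript per cell cannot be told apart.

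**Figure D1:**
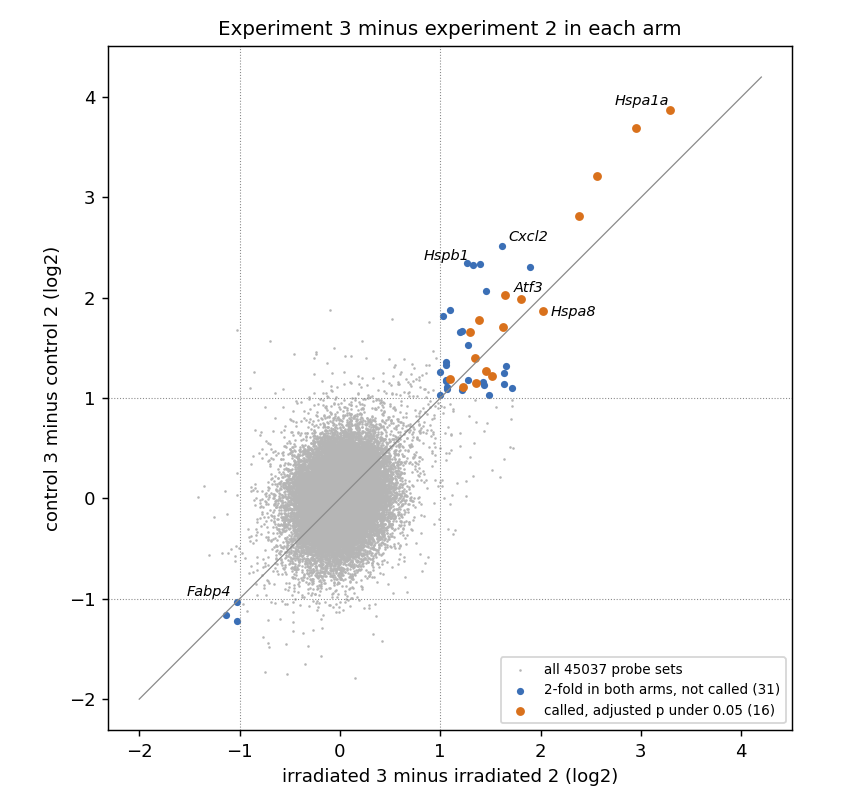
Each point is 1 of 45037 probe sets, with the difference between the irradiated cultures of experiments 3 and 2 on the x axis and that between their controls on the y axis, both in log2. The 16 called probe sets (orange) and the other 31 that were 2-fold apart in both arms (blue) lie mostly in the upper right corner, and 3 lie in the lower left.

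Among the calls, the largest differences were those of chaperone genes. Values are given with the control first. Hspa1a, the stress-inducible Hsp70, measured 8.83 and 9.06 in experiment 2 against 12.7 and 12.35 in experiment 3. Both arrays of experiment 3 were far above both of experiment 2, and experiment 1 was lower still at 5.71 and 5.63. The difference was 3.58 ± 0.15 (SE), or 12-fold, with an adjusted p of 0.0104 by limma. Hspa1b, its near-identical copy, measured 9.29 and 9.59, then 12.98 and 12.54, by 1427126_at, a rise of 3.32 ± 0.18. All 3 Hspa1b probe sets were called, but probes for 2 genes this alike may share signal, so the division between the copies is uncertain.

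Hspa8, the constitutive Hsp70 family member, rose by 1431182_at from 8.57 and 8.52 to 10.44 and 10.54, a difference of 1.95 ± 0.10. Its 3 other probe sets differed by 0.32, 0.34 and 0.15 and none was called, so the probe sets of Hspa8 disagree in size. Chaperones that were 2-fold higher in both arms without passing the test included Hspb1, Hsph1, Hspa2 and Dnajb1. Hspb1, a small heat shock protein that holds unfolding proteins, was at 9.28 and 9.37 in experiment 2 and 11.63 and 10.64 in experiment 3 (difference 1.81 ± 0.25, adjusted p 0.137 by limma). Its control array in experiment 3 stood 0.99 above the irradiated one. Hspa2, another Hsp70 family member, measured 8.4 and 8.38 in experiment 2 and 9.48 and 9.6 in experiment 3 (difference 1.15 ± 0.10, adjusted p 0.0583 by limma).

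Of 25 measured genes in the list of heat shock proteins and chaperones, limma called 2 at the probe set with the highest mean level, against 8 of 18193 genes (0.044%), and 0 lower. Their median difference was 0.32 (0.22 in the irradiated arm and 0.44 in the control arm), beside -0.01 over all genes, and 23 of 25 were positive, beside 46.3% of all genes. Hsp90aa1, the inducible Hsp90, differed by 0.42 ± 0.10, Serpinh1, a collagen chaperone, by 0.60 ± 0.14, and Dnaja1, an Hsp40 co-chaperone, by 0.63 ± 0.10, and none passed. The mitochondrial chaperone Hspd1 differed by 0.09 ± 0.09 and Hspa4 by 0.04 ± 0.10. Both arrays of experiment 3 were above both of experiment 2 in 17 of 25, beside 18.2% of all genes, and control 3 was the highest of the 4 arrays in 20 of 25, beside 28.1% of all genes.

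The AP-1 factors Atf3 and Fosb were also called. Atf3, a stress-induced repressor of the AP-1 and CREB family, rose from 10.18 and 10.22 in experiment 2 to 12.21 and 11.87 in experiment 3, by 1.84 ± 0.13 (adjusted p 0.0347 by limma). Fosb, a Fos family partner of Jun, rose from 8.74 and 8.40 to 9.96 and 9.92, by 1.37 ± 0.11 (adjusted p 0.0420 by limma). The ranges of the 2 experiments did not overlap for either gene, but both were chosen by the test, which makes this likely. Both arrays of experiment 3 were above both of experiment 2 in 18.2% of all genes. Jun, the main partner in AP-1, was at 11.27 and 11.09 in experiment 2 and 12.14 and 12.22 in experiment 3, a difference of 1.00 ± 0.12 that did not pass (adjusted p 0.0948 by limma).

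Of 11 AP-1 factors measured, 2 were called higher (0.044% of all genes) and 0 lower, 10 were positive (46.3% of all genes), and the median difference was 0.47, beside -0.01 over all genes. Fos differed by 0.47 ± 0.13, Junb by 0.45 ± 0.16 and Jund by 0.29 ± 0.10. Fosl2, also of the Fos family, was at -0.12 ± 0.19. Of 23 early response genes, 0 were called, 21 were positive and the median was 0.30, beside the same background. Arc, which trims receptors from synapses in neurons, differed by 1.45 ± 0.19, Ier5l by 1.26 ± 0.13 and Klf2, a transcription factor, by 1.08 ± 0.11. Not all early response genes were apart: Egr1, a zinc finger factor induced by growth factors, differed by 0.15 ± 0.10, Myc by 0.12 ± 0.13, Srf by 0.07 ± 0.09 and Klf10 by -0.03 ± 0.11. The nuclear receptor genes Nr4a1, Nr4a2 and Nr4a3 differed by 0.29, 0.08 and 0.07, and the arms of the last 2 had opposite signs (0.39 and 0.58 in the control arm, -0.24 and -0.45 in the irradiated arm).

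The other 7 called genes had varied roles. Hbegf, a membrane-anchored ligand of the EGF receptor, rose from 8.73 and 9.14 to 10.39 and 10.44, by 1.48 ± 0.12. Rgs1, which switches off G protein signals in leukocytes, was at 8.61 and 8.71 in experiment 2 and 10.39 and 10.1 in experiment 3, a rise of 1.59 ± 0.12. Ccl4, a chemokine that draws monocytes and T cells, rose from 7.90 and 7.94 to 9.05 and 9.30, by 1.26 ± 0.10. For Rgs1 and Ccl4, experiment 1 (8.57 and 8.55, 7.65 and 7.88) was close to experiment 2, whereas the other 10 called genes were lower in experiment 1 than in experiment 2, by 0.81 (Srsf3) to 4.33 (Fosb).

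Gadd45b, a stress sensor that activates p38 and JNK signalling, rose from 10.2 and 10.29 to 11.47 and 11.75, by 1.37 ± 0.11. Ccno, an atypical cyclin of multiciliated cells, was at 6.97 and 6.96 in experiment 2 and 8.68 and 8.59 in experiment 3, a rise of 1.67 ± 0.10. Eid3, an inhibitor of the EP300 coactivator, rose from 5.24 and 4.94 to 6.64 and 6.29, by 1.38 ± 0.11. For these 3 genes the lower culture of experiment 3 was above the higher culture of experiment 2. They were chosen by the test, and 18.2% of all genes did the same. Srsf3, a splicing factor, rose by 1.17 ± 0.09 by 1438215_at, from 6.72 and 6.63 to 7.83 and 7.86. Its 5 other probe sets differed by -0.04 to 0.11, so this rise was not shared by the rest of the Srsf3 probe sets. Of the 16 called probe sets, 11 had the larger difference in the control arm and 5 in the irradiated arm.

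**Figure D2:**
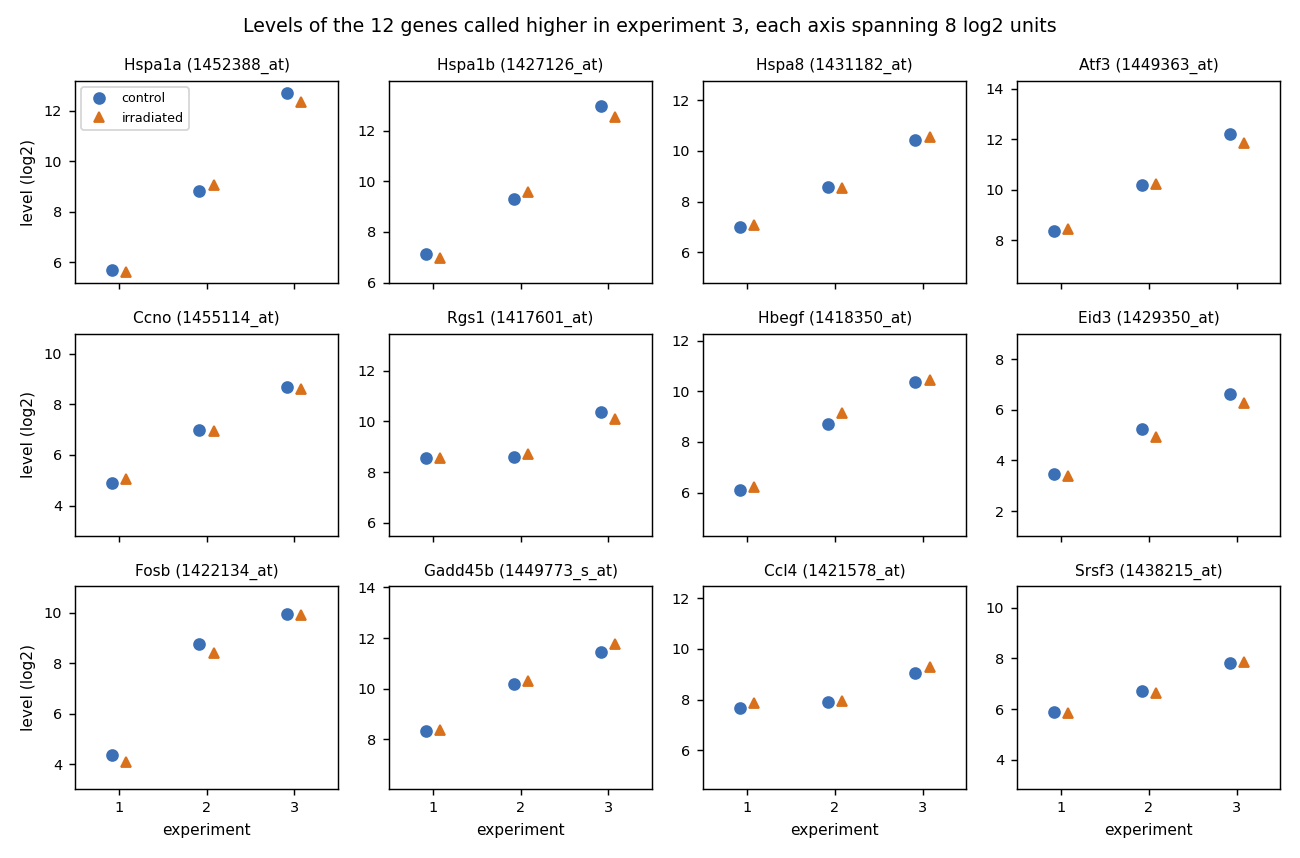
Log2 level of the 12 called genes in the control (circle) and irradiated (triangle) culture of each experiment, 1 probe set per gene. The arms of an experiment lie close together, and both cultures of experiment 3 stand above both of experiment 2 in all 12 genes, which were chosen by the test (18.2% of all genes do so), for example 12.7 and 12.35 against 8.83 and 9.06 for Hspa1a.

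Without a test, 44 probe sets were at least 2-fold higher in both arms (0.0977%) and 3 were 2-fold lower in both (0.00666%). Counting each arm by itself, with these included, 90 were 2-fold higher and 19 lower in the irradiated arm, and 146 and 62 in the control arm. The 44 stand for 34 genes and 2 unnamed probe sets. Of these 34 among 18193 genes, 20 belonged to at least 1 gene list. They included 7 of the 25 measured heat shock genes, 3 of the 23 early response genes and 2 of the 11 AP-1 factors. Here a gene counts by any of its probe sets, while the list values use only its brightest, so Hspa8 counts here through 1431182_at. Cxcl2, a chemokine that attracts neutrophils, was at 7.42 and 7.68 in experiment 2 and 9.94 and 9.30 in experiment 3 (2.07 ± 0.21, adjusted p 0.0690 by limma). Nefm, a neurofilament subunit, was at 6.08 and 6.14 against 8.42 and 7.54 (1.87 ± 0.22). Herpud1, an endoplasmic reticulum stress protein, was at 9.66 and 9.62 against 11.02 and 10.68 (1.21 ± 0.11), and Cxcl10, an interferon-induced chemokine, at 4.68 and 4.58 against 5.86 and 5.86 (1.23 ± 0.13). None of these 4 genes, chosen for their 2-fold difference in both arms, passed the test. Just inside the 2-fold limit, and named only for that place, were Purg and Sox11, each with a smaller arm difference of 1.00. Just outside it were the histone gene H3c7, with 0.98, and the tubulin gene Tubb3, with 0.96.

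Nothing on the lower side passed the test, and the 15 named genes differed in how far their probe sets were alike. For 3 of them (Rbak, Ttpa and Zdhhc23) there is 1 probe set, and for the other 12 there are several. Fabp4, the fatty acid carrier of fat cells, was at 8.60 and 8.20 in experiment 2 and 7.57 and 7.17 in experiment 3 by 1424155_at, a difference of -1.03 ± 0.12 (adjusted p 0.0948 by limma). Its probe sets 1417023_a_at and 1451263_a_at differed by only -0.04 and -0.12, and 1425809_at by -0.38. Maf, a bZIP transcription factor, differed by -1.01 ± 0.10 by 1444073_at, from 6.83 and 6.90 to 5.78 and 5.93. Its 5 other probe sets lay between -0.19 and 0.11.

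Values were similarly uneven for Tardbp, an RNA-binding protein (-0.67 ± 0.09 by 1428467_at, its 4 other probe sets between -0.21 and 0.25), and for Atp5c1, a subunit of ATP synthase (-0.77 ± 0.11 by 1438809_at, the other at -0.02). In Sbno2 the 3 other probe sets lay between -0.63 and -0.41 beside -0.85 by 1458308_at, and in Map7d2 the 2 probe sets differed by -0.71 and -0.45, so the differences of all their probe sets were negative. By 1441840_x_at, however, Sbno2 differed by -0.87 in the control arm and 0.06 in the irradiated arm. Rbak (-0.90 ± 0.11) and Ttpa (-0.77 ± 0.09) were called lower when probe sets were averaged per gene (adjusted p 0.0414 by limma for both). With 1 probe set each, their differences were the same in that fit, and only the estimate of the spread and the number of tests changed. Ebf2, a transcription factor of the adipocyte lineage, was lower by each of its 3 probe sets, which differed by -0.69 ± 0.11, -0.51 ± 0.10 and -0.47 ± 0.10, and by 1449102_at it was at 6.87 and 6.84 in experiment 2 and 6.21 and 6.12 in experiment 3. Zfp423, a related adipocyte lineage factor, was at 6.74 and 6.45 against 6.12 and 6.10 (-0.49 ± 0.11, adjusted p 0.305 by limma). Adipogenic factors were not lower as a list: of 16 measured, 8 were higher and 8 lower. Their median difference was 0, with members from -0.51 to 0.505, and 0 were called. Pde4d, a phosphodiesterase that breaks down cAMP, was at 9.66 and 9.89 against 9.12 and 8.77 (-0.83 ± 0.16, adjusted p 0.255 by limma).

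Over all probe sets most differences were small. The median standard error of a difference was 0.11, and the 95% interval lay within 1.5-fold in either direction for 87.3% of probe sets and within 2-fold for 99.0%. The standard deviation of the difference over probe sets was 0.212 between the irradiated cultures and 0.269 between the controls. The arm differences correlated across probe sets with r = 0.25, and with r = 0.41 among those at or above the median level of 4.84. Both are descriptions over probe sets, which share arrays and are not replicates. At a limit of 0.5 in both arms, 250 probe sets were higher (0.555%) and 99 lower (0.22%).

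Lists of fat cell, fatty acid synthesis, fatty acid oxidation and respiratory chain genes had medians between -0.11 and -0.035, beside -0.01 over all genes. Cholesterol synthesis and uptake had a median of 0.135, and hypoxia and glycolysis 0.11. Of 26 fat cell and lipid droplet genes, 0 were called and the median was -0.06, and adiponectin (Adipoq) was at 13.87 and 13.72 against 13.68 and 13.62. Fatty acid oxidation genes were lower in 16 of 18, with a median of -0.11, and proteasome subunits in 28 of 31, with a median of -0.07, beside 52.3% of all genes lower. Osteoblast markers were higher in 7 of 7 by the difference over both arms, with a median of 0.24, and in each arm in 5. The largest differences were Dmp1 at 0.475 ± 0.16 and the collagen gene Col1a1 at 0.45 ± 0.12. Circadian clock genes had a median of -0.17. None of the members of these lists passed the test.

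**Figure D3:**
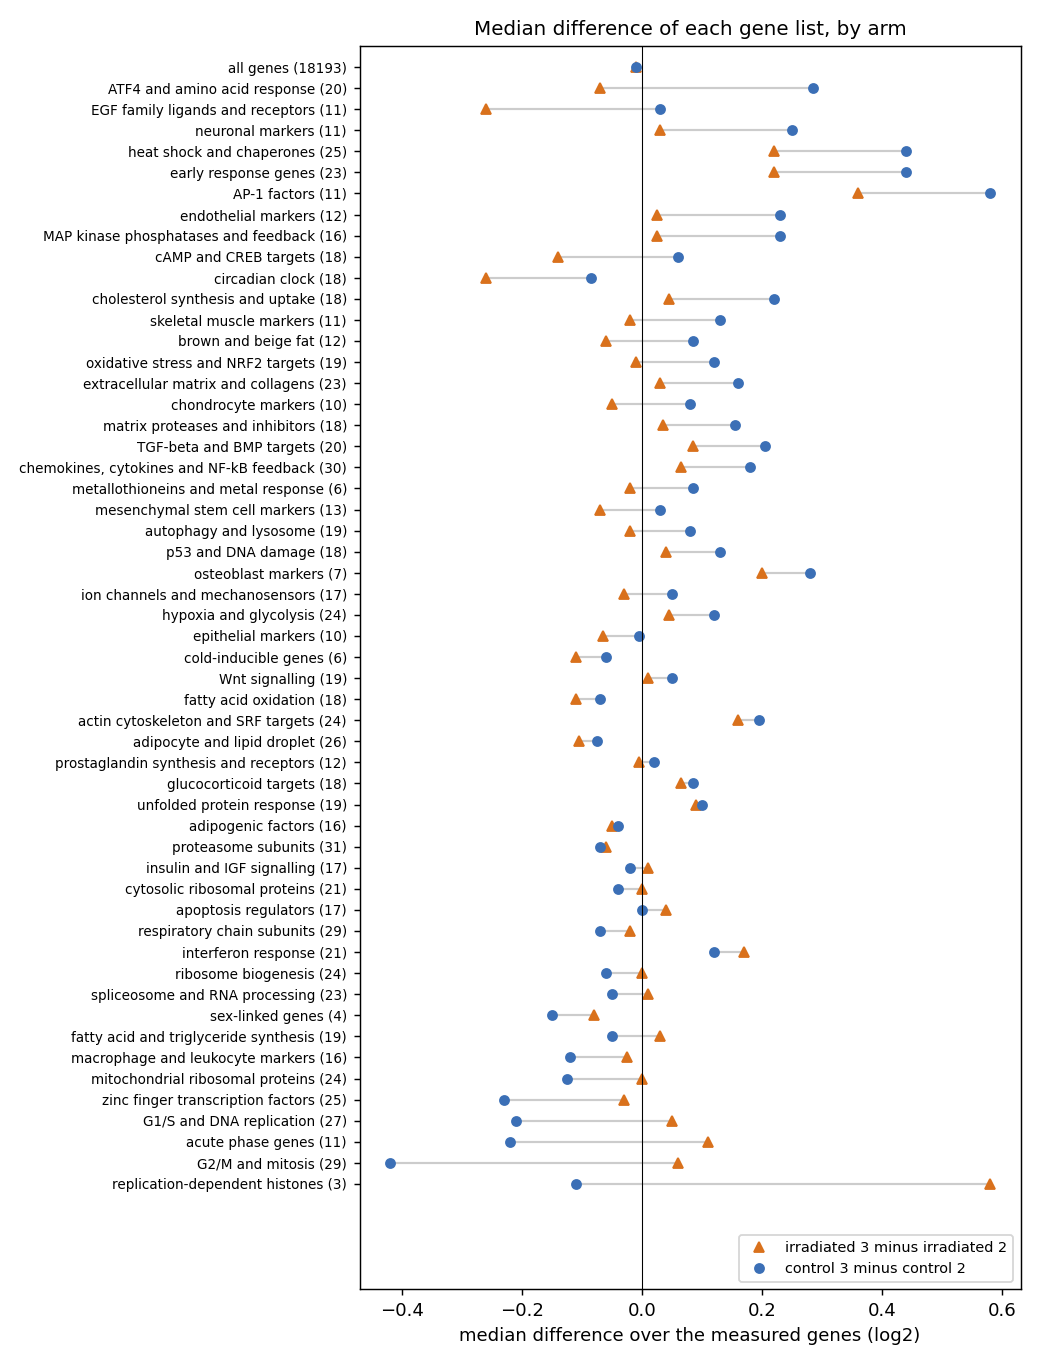
Median log2 difference between experiments 3 and 2 for each of 53 gene lists and for all genes, in the irradiated arm (triangle) and the control arm (circle), ordered by the gap between arms, with the number of measured genes in brackets. AP-1, heat shock and early response genes are positive in both arms, while G2/M and mitosis is at -0.42 in the control arm and 0.06 in the irradiated arm.

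The control array of experiment 3 also stood apart from its own irradiated partner. The control and irradiated cultures of experiment 3 differed 2-fold at 78 probe sets, and those of experiment 2 at 12. Control 3 was at least 0.8 above each of the other 3 arrays, while those lay within 0.5 of each other, at 29 probe sets (0.0644%), and at least 0.8 below at 17 (0.0377%). The same rule found, in either direction, 9 probe sets for irradiated 3 (0.02%), 4 for control 2 (0.00888%) and 1 for irradiated 2 (0.00222%). On this array the spike-in controls of hybridization averaged 11.63, above the 11.06 to 11.25 of the 5 remaining arrays, and it had a 3′ minus 5′ value of the Actb controls of 0.72, against 0.61 to 0.62 on the other 3 arrays of experiments 2 and 3 and 0.75 and 0.76 in experiment 1. The same value of the Gapdh controls was -0.03 on control 3 and between -0.05 and -0.01 on those 3 arrays. The part of these in the differences below was not tested.

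Mitotic genes were lowest on that array. In the list of G2/M and mitosis genes, control 3 was the lowest of the 4 arrays in 29 of 29 measured genes, beside 30.8% of all genes, on the deposited values and after quantile normalization or median centring. The median difference between experiments 3 and 2 was -0.42 in the control arm, with members from -0.75 to -0.17, and 0.06 in the irradiated arm, with members from -0.17 to 0.27. Within experiment 3 the control minus irradiated difference had a median of -0.52, whereas it was -0.06 in experiment 2 and -0.06 in experiment 1.

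Nuf2, a kinetochore subunit, measured 6.33 and 6.33 in experiment 2, then 5.58 and 6.45 in experiment 3. Aurkb, the kinase of the chromosomal passenger complex, was at 7.17 and 7.24, then 6.50 and 7.35. Ccnb2 was at 8.56 and 8.59, then 7.96 and 8.65. In each gene 3 arrays lay close together and control 3 lay below them. Mki67, the proliferation marker Ki-67, was at 9.59 and 9.77, then 9.04 and 9.63, and Cdc20 at 9.29 and 9.38, then 8.86 and 9.44. The smallest gap to the nearest array was 0.17, that of Aurka, a kinase of the spindle poles, at 7.51 and 7.64, then 7.34 and 7.75.

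A limma fit with a term for control 3 alone tested whether the arm difference of experiment 3 departed from that of experiments 1 and 2. It called 0 of 45037 probe sets (0%), with 3434 at an unadjusted p under 0.05 and a lowest adjusted p of 0.633 by limma, and it left 1 residual degree of freedom. Among the 29 mitotic genes, 18 had an unadjusted p under 0.05, beside 6.56% of all genes. With an intensity trend and robust prior the same term called 390 probe sets, 225 higher and 165 lower, among them 7 of the 29 mitotic genes, all lower, beside 0.396% of all genes called lower. It also called 7 of the 25 heat shock and chaperone genes, 5 of 23 early response genes, 4 of 18 cAMP and CREB targets and 2 of 11 AP-1 factors, all higher, beside 0.726% of all genes called higher. Calls in other lists included 4 of 18 matrix proteases and inhibitors higher and 1 lower, and 3 of 23 extracellular matrix genes higher and 1 lower. Also higher were 4 of 30 chemokine, cytokine and NF-kB feedback genes, 3 of 19 NRF2 targets and 3 of 16 MAP kinase phosphatases and feedback genes. The test cannot say which of the 2 arrays of experiment 3 moved.

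Genes of S phase showed a similar but less even picture. Of 27 G1/S and DNA replication genes, control 3 was the lowest of the 4 arrays in 22, beside 30.8% of all genes. Their medians were -0.21 in the control arm and 0.05 in the irradiated arm. Pole, a subunit of DNA polymerase epsilon, was at 6.88 and 6.82 in experiment 2, then 6.29 in control 3 and 6.72 in irradiated 3. Slbp, which binds the stem-loop of histone mRNAs, went the other way in both arms, at 10.33 and 10.49 against 10.99 and 11.09 (0.63 ± 0.10, adjusted p 0.178 by limma). Control 3 was also lowest in 17 of 25 zinc finger transcription factors and 15 of 23 spliceosome and RNA processing genes (14 and 12 after median centring). It was lowest in 14 of 21 cytosolic ribosomal protein genes, but in 4 after median centring. Macrophage and leukocyte markers were lowest on control 3 in 14 of 16 (12 after median centring), with medians of -0.12 in the control arm and -0.03 in the irradiated arm. Their mean level was 10.58 on control 3 and between 10.74 and 10.78 on the other 3 arrays. Members ranged from Fcgr1, between 5.44 and 5.92, to Lyz2, between 14.15 and 14.25, beside a median probe set level of 4.84. Ptprc (CD45) was between 9.55 and 9.90 and Csf1r between 12.42 and 12.68. Whether the share of leukocytes had a part in the differences of control 3 was not tested.

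**Figure D4:**
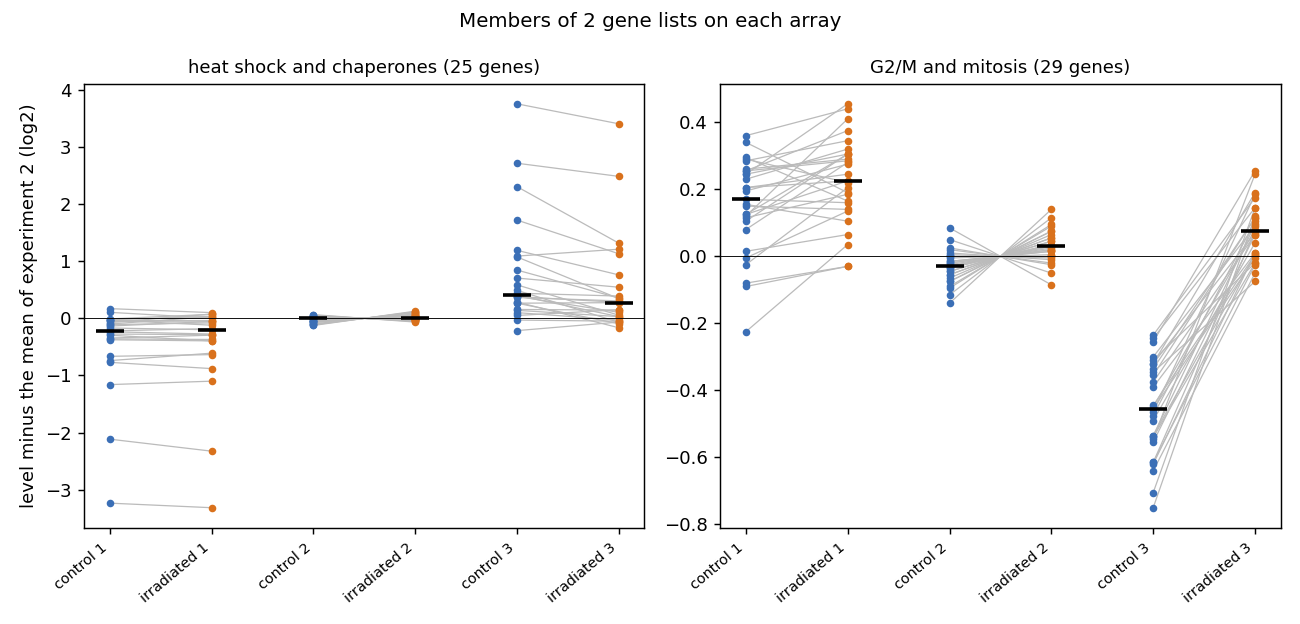
Log2 level of each measured member of 2 lists on the 6 arrays, minus that gene's mean in experiment 2, with lines joining the arms of 1 experiment and bars at the median. On both arrays of experiment 3, 17 of 25 heat shock genes are above both arrays of experiment 2, and all 29 mitotic genes are lower on control 3 than on irradiated 3.

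Other lists were highest on control 3. Of 20 genes of the ATF4 and amino acid response, it was the highest of the 4 arrays in 16, beside 28.1% of all genes. Their medians were 0.29 in the control arm and -0.07 in the irradiated arm. Ddit3, the stress factor CHOP, was higher in both arms (10.79 and 10.75 against 11.93 and 11.45, 0.92 ± 0.13) and so was Ppp1r15a, which restarts translation after stress (9.99 and 9.81 against 10.81 and 10.57, 0.79 ± 0.12). Neither passed the test. Of 18 cholesterol synthesis and uptake genes, 14 were highest on control 3, beside the same 28.1%, with medians of 0.22 and 0.05 in the control and irradiated arms. Idi1, an enzyme that makes isoprenoid units, was at 8.90 and 9.06 against 9.46 and 9.34.

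Among single genes that set control 3 apart, Cryab, the small heat shock protein alpha B-crystallin, was at 9.28 on control 3 by 1416455_a_at, and at 7.71, 7.90 and 8.12 on control 2, irradiated 2 and irradiated 3. A second Cryab probe set, 1434369_a_at, was at 10.95 on control 3 and 9.75, 10.0 and 10.22 on the others. Sox9, the master regulator of cartilage, was at 8.31 on control 3 by 1424950_at and at 7.11, 7.10 and 7.43 on the others. Its other 2 probe sets were highest on the same array, 0.64 and 1.07 above the mean of the other 3. Sox9 was lower in experiment 1, at 4.84 and 4.76.

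Ptgs2, the inducible cyclooxygenase that makes prostaglandins, was at 8.88 on control 3 by 1417263_at and at 7.72, 7.94 and 8.04 on the others, and its other probe set, 1417262_at, was at 12.32 against 11.56, 11.71 and 11.8. Plcxd2 was at 7.32 on control 3 by 1455324_at and between 6.07 and 6.39 on the others. Nanos1, an RNA-binding regulator of germ cells, was at 5.88 by 1436648_at against 4.46 to 4.84. The other genes above on this array were Klhl40, Prr9, Htr1d, C1qtnf3, Tll1, Adamtsl3 and Nmu, with gaps of 0.80 to 0.99 to the nearest array. The level limit was read on the highest array: 6 of the 12 named genes (Htr1d, Klhl40, Nanos1, Nmu, Prr9 and Tll1) passed it through control 3 alone and were under the median probe set on the other 3 arrays. For Htr1d, a serotonin receptor, 1440741_at was only 0.18 above the mean of the other 3 arrays, so its probe sets disagreed.

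Below the other arrays, Haspin, the kinase that marks histone H3 in mitosis, was at 4.50 on control 3 and at 5.58, 5.65 and 5.58 on control 2, irradiated 2 and irradiated 3. Cenpi, a centromere protein, was at 6.02 against 6.98, 7.14 and 6.85, and Depdc1a, a mitotic gene, at 3.87 against 4.85, 4.87 and 4.79. Each of these 3 has 1 single-gene probe set. Arhgef1 was at 4.52 by 1440403_at against 5.55 to 5.62, but by 1421164_a_at it was 0.18 above the mean of the other arrays. Dock4 stood at -0.97 from that mean by 1441462_at and between -0.29 and 0.23 from it by its 4 other probe sets. Naip6 was at 5.18 against 6.01 to 6.16.

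**Figure D5:**
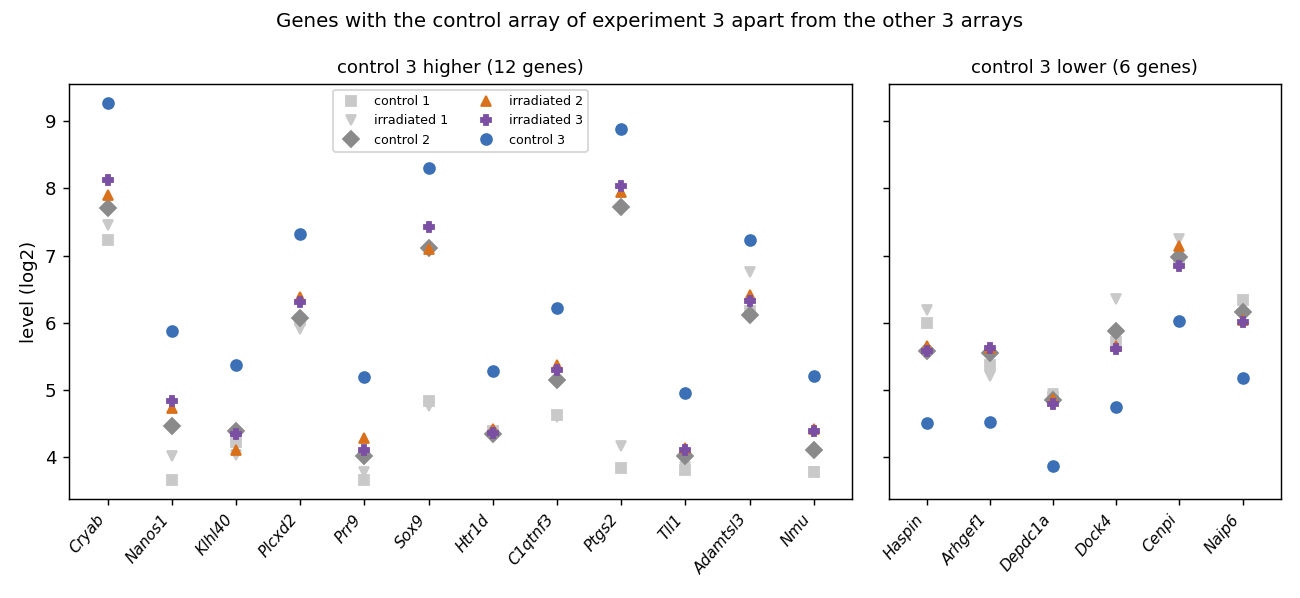
Log2 level on each of the 6 arrays of the 18 named genes whose control 3 value was at least 0.8 from each of the other 3 arrays of experiments 2 and 3. Control 3 (blue circle) is above in 12 genes, such as Cryab at 9.28 against 7.71 to 8.12, and below in 6, such as Haspin at 4.50 against 5.58 to 5.65, with experiment 1 in light grey.

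The labelled cell type was checked against its markers. Of 13 mesenchymal stem cell markers measured, 0 were called between the experiments, and the median difference was -0.08. On the 4 arrays Pdgfrb, Vcam1, Prrx1, Cd44 and Itgb1 were between 10.66 and 11.27, Alcam and Lepr between 9.91 and 10.28, Pdgfra and Twist1 between 9.11 and 9.69, Nt5e between 7.53 and 8.35, Eng between 7.17 and 7.42 and Mcam between 6.24 and 6.42. Thy1 (CD90) was between 3.51 and 4.07, and whether it was above background was not tested. Macrophage markers were measured in the same cultures, with Csf1r between 12.42 and 12.68, Tyrobp between 12.37 and 12.53 and Lyz2 between 14.15 and 14.25. The lowest of the 16 markers were Fcgr1, between 5.44 and 5.92, Aif1, between 6.77 and 7.16, and Itgam, between 7.26 and 7.64. Of 4 sex-linked genes measured, Xist, the RNA that silences an X chromosome, was at 10.75 to 10.92 on the 6 arrays. The Y-linked Eif2s3y was at 7.98 to 8.27. The 4 genes together averaged 7.61 to 7.78 on the 6 arrays, so the members not named were lower on average. Whether any of the 4 was above background was not tested.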

How the data were processed

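Levels were measured on 6 Affymetrix arrays, 1 per culture, and 4 of them form the comparison. The deposited values are log2 levels per probe set, for which the submitters' processing notes name RMA, affy and limma without versions. The RMA step equalizes the arrays, so a shift common to every transcript would not show, and its log base, not written with the values, is taken as 2. Scanner files were not used here.

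Of 45101 probe sets, 64 Affymetrix controls were left out. In the platform annotation 34945 of the rest have 1 gene symbol (18193 genes), 932 several and 9160 none. All 6 arrays were fitted with limma 3.58.1 in R 4.3.3 (lmFit, eBayes), with terms for experiment and irradiation and 2 residual degrees of freedom. Tests are two-sided, adjusted by Benjamini-Hochberg over 45037 probe sets at a threshold of 0.05, and ± is the fit's standard error. The number of arrays limits the precision. The code was checked on simulated data.

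Named genes are, per direction, up to 15 with the largest called difference (then the smallest unadjusted p), up to 12 for control 3 alone, the first 3 by p of each gene list, and all members of the heat shock, AP-1, early response, G2/M and sex-linked lists. Both rules for single genes ask for a level of at least the median probe set on the higher side only (the higher experiment, or the highest array). In the 53 lists each gene stands for its brightest probe set with 1 symbol, 910 of 986 genes were measured, and 3 were matched by Entrez identifier to another symbol. The compared arrays, the lists and the tests were chosen with earlier results of these data known. Alternatives were other fits, filters, scalings, gap sizes and leaving out each array. Promoters were matched to RefSeq by symbol.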

Additional observations from a re-analysis of the deposited data

How the results depend on the processing

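The count of 16 probe sets higher in experiment 3 was 18 after quantile normalization, 24 after median centring and 17 with array weights. It was 48 with no irradiation term, 58 with a filter on level, 242 with an intensity trend and robust prior and 31 with the mean of a gene's probe sets. It was 0 with only experiments 2 and 3, and between 0 and 0 without each of the 4 arrays in turn, where the lone array of an experiment is assumed to vary like the others. All 16 were among the calls of each setting on probe sets that made any. The count of 0 lower was 4 with no irradiation term, 6 with the filter, 73 with the trend and robust prior and 2 with gene means. The 16 calls that were 2-fold in both arms were 0 with only experiments 2 and 3, 32 with no irradiation term, 34 with the filter and 47 with the trend and robust prior, and could not be counted without an arm. Untested, the 44 higher and 3 lower in both arms were 24 and 0 with gene means. The 29 probe sets higher and 17 lower on control 3 alone were 7 and 7 with the filter, 301 and 261 at a gap of 0.5, and 5 and 4 at a gap of 1. With experiment 1 included they were 23 and 11. The control 3 term called 0, and 390 with the trend and robust prior. Under scaling, 3 of 53 list medians changed sign (Wnt signalling, cytosolic ribosomal proteins and acute phase genes), all near 0. No paired analysis was possible because the replicate number is the experiment, the factor compared here. With 1 run per experiment and signal rounded to 2 decimals, small differences of dim probe sets have little support.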
